A study of Mus musculus with 12 samples.

Results

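The genes described here encode the methionine cycle and the transsulfuration pathway, the route by which mouse liver makes and recycles its main methyl donor and passes sulfur on to cysteine. They were Mat1a, Mat2a, Gnmt, Ahcy, Bhmt, Cbs, Cth, Pemt and Cdo1, and a probe set was taken where the array annotation gave it exactly 1 of these symbols. This found 9 of the 22626 probe sets tested, for 8 of the 9 genes: Cbs had 2 probe sets and the other genes 1 each, while Mat2a, which encodes the methionine adenosyltransferase of most tissues outside the adult liver, was not analysed here. Livers came from male mice aged 6 to 8 weeks, all labelled C57BL/6, that were either POR-null or wild type. POR, the cytochrome P450 reductase, passes electrons to the microsomal cytochromes P450, and the labels do not say how or in which cells it was disrupted. After 14 days on a soya-free powdered diet, mice of each genotype received either the flavonol quercetin mixed into that diet (6.2 g per kg, also stated as 7 mg per mouse) or the same diet without it, and whole livers were taken after 24 h. The 4 groups were thus POR-null mice given quercetin, POR-null mice on the control diet, wild-type mice given quercetin and wild-type mice on the control diet. Each group had 3 arrays and each array carried RNA pooled from 3 mice, so every test measured the spread between pools and not between single mice.

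In this pathway a methionine adenosyltransferase joins methionine to ATP to form S-adenosylmethionine, methyltransferases spend its methyl group, and the S-adenosylhomocysteine they leave is hydrolysed to homocysteine. Homocysteine is either methylated back to methionine, in liver largely with betaine as the donor, or joined to serine and cleaved to cysteine, which feeds glutathione, taurine and sulfate. The liver is a main site of all these steps, and S-adenosylmethionine is also the methyl donor when flavonols such as quercetin are methylated.

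Values are log2 signals, on which a difference of 1 is a doubling. Differences were tested with limma over all probe sets, and a probe set counts as higher or lower only at an adjusted p under 0.05. All 9 probe sets had means above the median of all values, 5.96. Arrays of a group correlated at r = 0.988 to 0.993, and the first principal component, with 33% of the variance, separated the genotypes. On it POR-null control array 3 scored 0.11, between the 19.3 and 7.88 of its group and the wild-type arrays, which all scored below 0. The defining markers of hepatocytes were strongly detected in every pool, with a mean signal of 12.32 to 12.56 over 12 genes. The level of Por was not analysed here, and no check of the genotype labels rests on it.

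Averaged over both diets, POR-null livers had more Mat1a, Bhmt and Cth RNA than wild-type livers and less Cbs RNA. The increases were 1.28-fold for Mat1a, 1.38-fold for Bhmt and 1.40-fold for Cth, and Cbs was 1.39-fold lower by its brighter probe set. In all, 5 of the 9 probe sets, standing for 4 of the 8 genes, passed the threshold, where 7.58% of all probe sets did. That share covers probe sets of every signal level, whereas the members were all above the median. With the lowest 40% of means left out, 1746 probe sets passed, against 1714 of the full 22626. As fewer probe sets were tested there, the share that passed was above 7.58%. By direction, 3 members were higher, against 4.88% of all probe sets, and 2 probe sets of 1 gene were lower, against 2.7%. Gnmt, Pemt, Ahcy and Cdo1 did not pass. The median difference of the members was 0.07, against -0.02 over all probe sets. In these bulk samples, fewer cells of a type and less RNA per cell cannot be told apart.

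**Figure D1:**
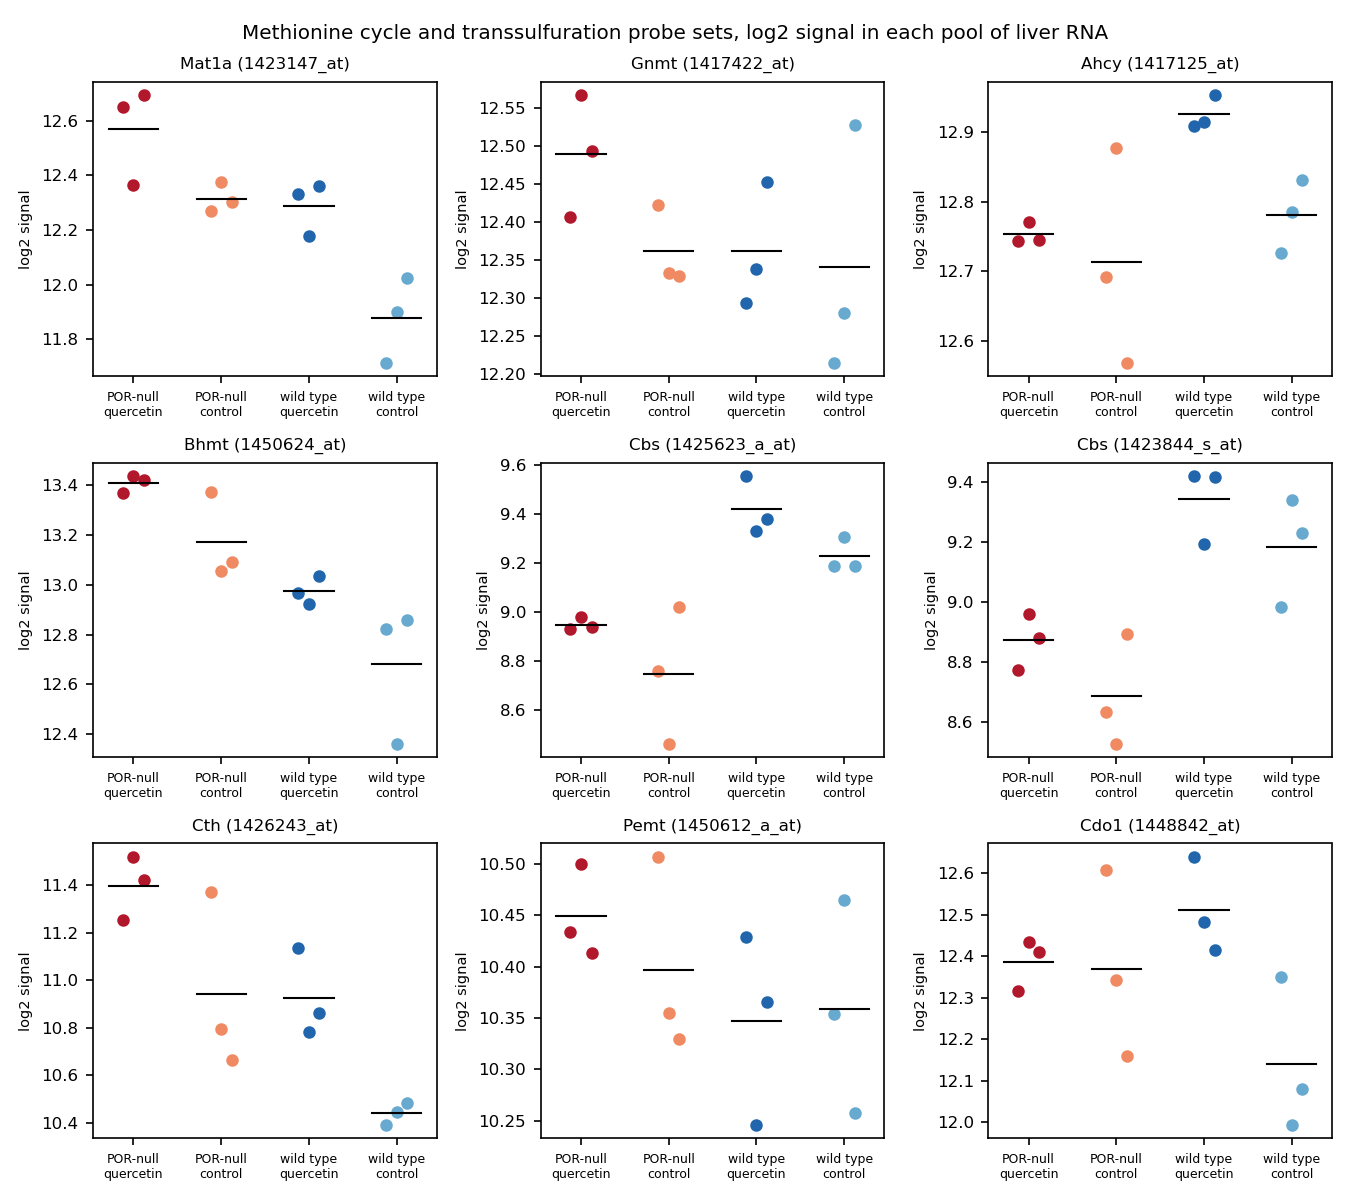
Log2 signal of each member probe set on every array, 1 panel per probe set, with 3 points and a line at the mean for each genotype and diet group. All 6 POR-null points lie above all 6 wild-type points for Bhmt and below them for both Cbs probe sets.

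Mat1a encodes the methionine adenosyltransferase of the adult liver, the enzyme that forms S-adenosylmethionine. Its signal was 12.65, 12.36 and 12.70 in POR-null quercetin pools, 12.27, 12.38 and 12.30 in POR-null control pools, 12.33, 12.18 and 12.36 in wild-type quercetin pools and 11.71, 11.90 and 12.02 in wild-type control pools. The wild-type control pools were the lowest of all 12, and on each diet the POR-null pools stood above the wild-type pools. On the quercetin diet this was by a very small margin, with POR-null array 2 at 12.364 and wild-type array 3 at 12.362. Averaged over diets Mat1a was higher in POR-null liver by 0.36 ± 0.07 (SE; 95% confidence interval 0.20 to 0.51, adjusted p = 0.00827). The difference on the control diet was 0.44 (adjusted p = 0.0574) and on the quercetin diet 0.28 (adjusted p = 0.177), so neither diet alone passed.

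Gnmt and Pemt spend the methyl group. Gnmt encodes glycine N-methyltransferase, an abundant liver enzyme that methylates glycine and holds down excess S-adenosylmethionine, and Pemt encodes the enzyme that methylates phosphatidylethanolamine to phosphatidylcholine. Gnmt averaged 12.49 ± 0.08 in POR-null quercetin, 12.36 ± 0.05 in POR-null control, 12.36 ± 0.08 in wild-type quercetin and 12.34 ± 0.17 in wild-type control pools (SD, n = 3 each). Pemt averaged 10.45 ± 0.05, 10.40 ± 0.10, 10.35 ± 0.09 and 10.36 ± 0.10 in POR-null quercetin, POR-null control, wild-type quercetin and wild-type control pools (SD, n = 3 each). The groups overlapped for both genes. The genotype difference averaged over diets was 0.07 for Gnmt (95% confidence interval -0.06 to 0.21, adjusted p = 0.523) and 0.07 for Pemt (-0.06 to 0.20, adjusted p = 0.526). Those intervals leave out a genotype difference as large as that of Mat1a, Bhmt or Cth.

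Ahcy encodes S-adenosylhomocysteine hydrolase, which removes the by-product that inhibits most methyltransferases. Its signal was 12.74, 12.77 and 12.75 in POR-null quercetin pools, 12.69, 12.88 and 12.57 in POR-null control pools, 12.91, 12.92 and 12.95 in wild-type quercetin pools and 12.73, 12.79 and 12.83 in wild-type control pools. Within the quercetin diet all POR-null pools were below all wild-type pools, but the difference of -0.17 did not pass (adjusted p = 0.3), and averaged over diets it was -0.12 (95% confidence interval -0.24 to 0.00, adjusted p = 0.229).

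Bhmt encodes betaine-homocysteine methyltransferase, which returns homocysteine to methionine with betaine from choline. Its signal was 13.37, 13.44 and 13.42 in POR-null quercetin pools, 13.37, 13.06 and 13.09 in POR-null control pools, 12.97, 12.92 and 13.04 in wild-type quercetin pools and 12.82, 12.36 and 12.86 in wild-type control pools. Every POR-null pool exceeded every wild-type pool, which held in the higher direction for 1.92% of all probe sets. Averaged over diets Bhmt was higher by 0.46 ± 0.09 (SE; 95% confidence interval 0.28 to 0.65, adjusted p = 0.00458). The difference was 0.49 on the control diet (adjusted p = 0.0654) and 0.44 on the quercetin diet (adjusted p = 0.0728).

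Cbs and Cth encode the enzymes of transsulfuration. Cystathionine beta-synthase, the product of Cbs, commits homocysteine to this route by joining it to serine, and cystathionine gamma-lyase, the product of Cth, releases cysteine. The 2 genes differed in opposite directions between the genotypes. By its brighter probe set, Cbs had signals of 8.93, 8.98 and 8.94 in POR-null quercetin pools, 8.76, 8.46 and 9.02 in POR-null control pools, 9.56, 9.33 and 9.38 in wild-type quercetin pools and 9.19, 9.31 and 9.19 in wild-type control pools. No POR-null pool reached any wild-type pool, a separation that held in the lower direction for 1.22% of all probe sets. The difference averaged over diets was -0.48 ± 0.08 (SE; 95% confidence interval -0.66 to -0.30, adjusted p = 0.00346). The other Cbs probe set, with 8.53 to 8.96 in POR-null pools and 8.99 to 9.42 in wild-type pools, gave -0.49 (adjusted p = 0.003), and both probe sets moved together over the 12 arrays (r = 0.951). This other probe set is of the type that can match related transcripts, and signal from them was not tested.

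Cth had signals of 11.25, 11.52 and 11.42 in POR-null quercetin pools, 11.37, 10.79 and 10.66 in POR-null control pools, 11.14, 10.78 and 10.86 in wild-type quercetin pools and 10.39, 10.45 and 10.49 in wild-type control pools. The wild-type control pools were the lowest of the 12 and the POR-null control pools were widely spread, with a single high array. Averaged over diets Cth was higher in POR-null liver by 0.49 ± 0.11 (SE; 95% confidence interval 0.26 to 0.71, adjusted p = 0.0125). The difference was 0.50 on the control diet (adjusted p = 0.124) and 0.47 on the quercetin diet (adjusted p = 0.121).

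Cdo1 encodes cysteine dioxygenase, which oxidises cysteine on the way to taurine and sulfate. Its signal was 12.32, 12.44 and 12.41 in POR-null quercetin pools, 12.61, 12.34 and 12.16 in POR-null control pools, 12.64, 12.48 and 12.42 in wild-type quercetin pools and 12.35, 11.99 and 12.08 in wild-type control pools. Genotypes overlapped, and the difference averaged over diets was 0.05 (95% confidence interval -0.13 to 0.23, adjusted p = 0.756).

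Within single diets the genotype comparison called fewer members. On the control diet 0 of the 9 probe sets passed in limma, where 1.16% of all did, although 5 had an unadjusted p under 0.05, as did 15.8% of all probe sets. On that diet the pools of the genotypes did not overlap for 3 member probe sets that were higher in POR-null liver, against 8.04% of all, and for 2 that were lower, against 9.24%. On the quercetin diet 1 passed, the dimmer Cbs probe set (-0.47, adjusted p = 0.0499), where 2.33% of all did, and 5 had an unadjusted p under 0.05, against 17% of all. There the pools did not overlap for 3 higher member probe sets, against 11.9% of all, and for 3 lower ones, against 13%. The control-diet count became 2 without wild-type control array 1 and 3 without POR-null control array 3. The quercetin-diet call was lost on leaving out any 1 of that diet's 6 arrays. By contrast, the 5 calls averaged over diets held in all 12 fits that each left out 1 array.

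**Figure D2:**
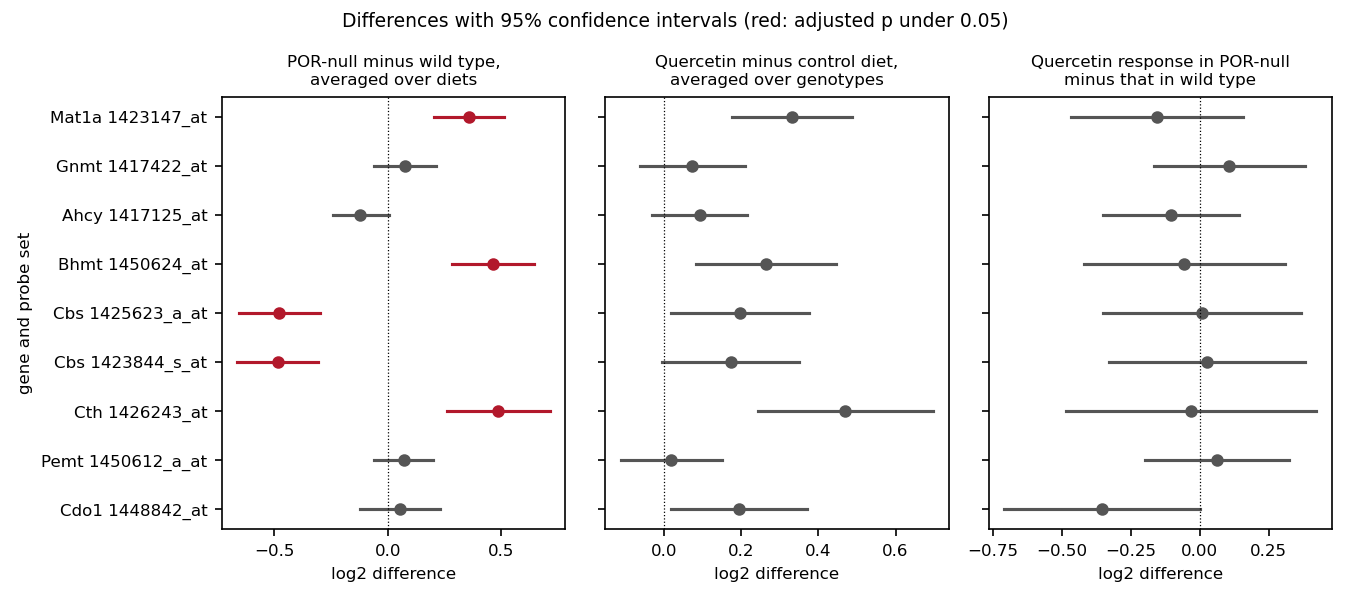
Log2 difference of each member probe set with its 95% confidence interval, in 3 panels: POR-null minus wild type averaged over diets, quercetin minus control diet averaged over genotypes, and the interaction, the difference between the quercetin responses of the genotypes (POR-null minus wild type). Genotype intervals averaged over diets lie wholly above 0 for Mat1a, Bhmt and Cth and wholly below 0 for both Cbs probe sets.

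The promoters of Bhmt and Cbs, members that differed in opposite directions between genotypes, are printed to show how unlike these regions are in base composition. Each line is RefSeq sequence on the gene's strand, from 250 bases upstream up to the annotated start, in build GRCm38.p6. Bhmt lies at chr13:93637759-93638008 and Cbs at chr17:31637206-31637455, both on the minus strand. Capitals mark matches on either strand to the GC box GGGCGG, the pentamer CCAAT, the TATA box in the form TATAAA, the core AGGTCA of sites for many nuclear receptors, the E-box CACGTG and, as the core of the antioxidant response element, TGACNNNGC.
Bhmt promoter: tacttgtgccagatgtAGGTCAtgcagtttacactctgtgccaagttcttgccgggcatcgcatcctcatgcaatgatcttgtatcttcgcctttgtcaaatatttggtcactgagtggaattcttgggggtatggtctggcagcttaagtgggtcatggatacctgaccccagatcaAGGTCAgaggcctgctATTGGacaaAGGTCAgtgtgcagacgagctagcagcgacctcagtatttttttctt
Cbs promoter: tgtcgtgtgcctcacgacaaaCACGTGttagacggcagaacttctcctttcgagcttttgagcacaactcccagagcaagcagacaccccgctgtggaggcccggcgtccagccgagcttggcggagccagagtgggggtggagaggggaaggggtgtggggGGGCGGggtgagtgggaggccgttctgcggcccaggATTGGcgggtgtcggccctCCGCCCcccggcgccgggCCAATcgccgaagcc
The Bhmt window had a GC content of 48.0% with 5 CG pairs, and the Cbs window 68.0% with 21, against medians of 52.4% and 6 over 32851 annotated promoters of the same length. Bhmt held 3 copies of AGGTCA, at 234, 72 and 47 bases upstream of the start, and Cbs held 0. At least 1 copy was present in 14.0% of all promoters and at least 3 copies in 0.131%, a number of copies chosen after the Bhmt window was seen. Cbs held 2 copies of GGGCGG, a number that 16.7% of promoters reached or passed, and Bhmt held 0. Such matches describe letters only and say nothing of which factors bind there.

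Quercetin passed the threshold for no member in either genotype, and for 0 of the 22626 probe sets in limma (0% in wild type, 0% in POR-null and 0% for the average). Averaged over genotypes, 9 of the 9 probe sets had higher means with quercetin, against 47.9% of all probe sets, but Pemt, at 0.02, turned to -0.03 under quantile normalization. The median difference was 0.20 for the members and -0.01 over all probe sets. At an unadjusted p under 0.05 the average over genotypes held 5 of the 9 probe sets, against 9.19% of all. Cth differed most, by 0.47 (95% confidence interval 0.24 to 0.70, adjusted p = 0.232), then Mat1a by 0.33 (0.18 to 0.49, adjusted p = 0.232) and Bhmt by 0.27 (0.08 to 0.45, adjusted p = 0.382). Without the array highest in exocrine pancreas markers in each group, the Bhmt difference was 0.15 averaged over genotypes and, in wild type, 0.10 in place of 0.29, and that of Cdo1 was 0.12 in place of 0.20 averaged over genotypes. The 9 values are not independent, since they come from the same arrays and Cbs gives 2 of them.

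In wild-type liver, 6 of the 9 probe sets had all quercetin pools above all control pools, namely those of Mat1a, Ahcy, Bhmt, Cth and Cdo1 and the brighter one of Cbs, where 5.67% of all probe sets did. The wild-type differences were 0.49 ± 0.15 for Cth (SE; adjusted p = 0.425), 0.41 ± 0.10 for Mat1a (adjusted p = 0.355) and 0.37 ± 0.12 for Cdo1 (adjusted p = 0.425). At an unadjusted p under 0.05 there were 4 member probe sets in wild type, against 8.58% of all. Hepatocyte markers, averaged over 12 genes, were at 12.52 to 12.56 in wild-type quercetin pools and 12.36 to 12.51 in wild-type control pools, without overlap. In wild type 10 of these 12 had higher means with quercetin (median 0.12), as did 11 of 11 macrophage markers (median 0.26), and 0 of either list passed. Their part in the members' diet differences was not tested. Wild-type control array 1 stood apart from its group on the second principal component, at 12.1 against -17.7 and -16.2. Without it 151 probe sets of the whole array passed for quercetin in wild type, but no member did.

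In POR-null liver 0 of the 9 probe sets were free of overlap between the diets, where 6.62% of all were with quercetin higher. The differences were 0.45 for Cth (adjusted p = 0.64), 0.25 for Mat1a (adjusted p = 0.67), 0.24 for Bhmt (adjusted p = 0.743) and 0.02 for Cdo1 (adjusted p = 0.985). At an unadjusted p under 0.05 there were 2 members, Mat1a and Cth, against 6.99% of all probe sets.

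Whether quercetin acted differently in the genotypes was tested as the interaction, the POR-null response minus the wild-type response. It passed for 0 members and 0% of all probe sets in limma, with 1 member and 6.17% of all at an unadjusted p under 0.05. That member was Cdo1, whose difference between responses was -0.35 (95% confidence interval -0.71 to 0.00, adjusted p = 0.807). The interval was -0.47 to 0.15 for Mat1a, -0.49 to 0.42 for Cth, -0.42 to 0.31 for Bhmt and -0.35 to 0.37 for the brighter Cbs probe set. Equal responses in the genotypes are not shown by intervals of this width.

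**Figure D3:**
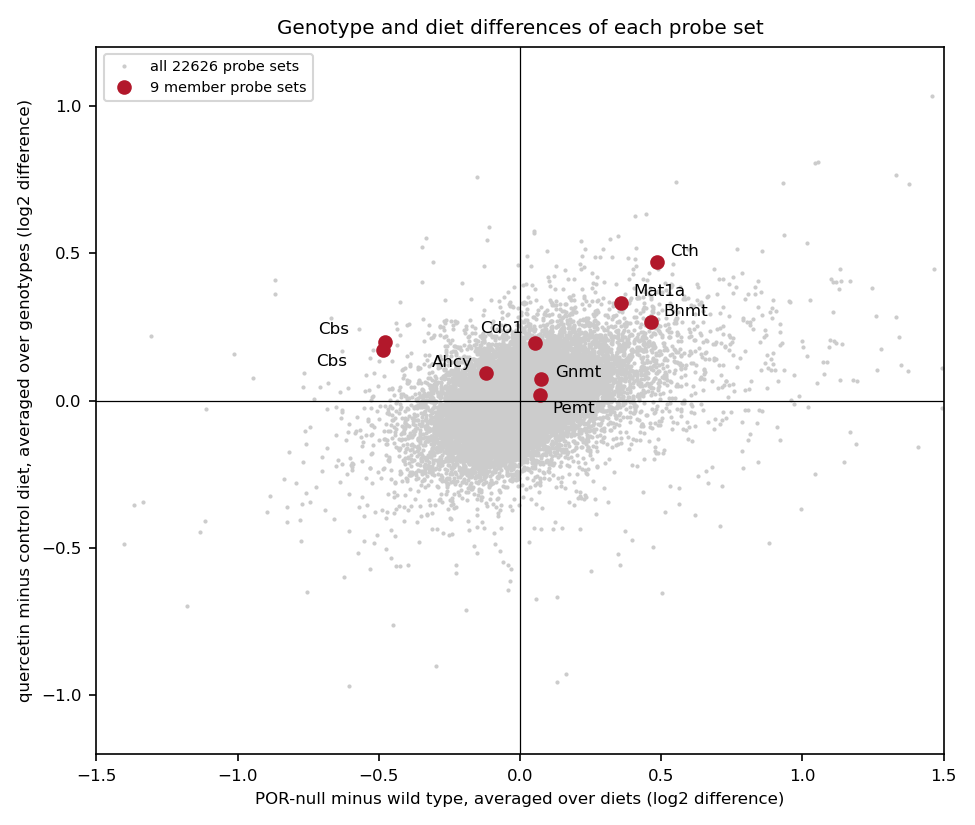
Log2 difference between genotypes averaged over diets (POR-null minus wild type, horizontal axis) and between diets averaged over genotypes (quercetin minus control, vertical axis), with members named among all probe sets; 25 probe sets lie beyond the axes. The members lie on the side of higher quercetin means, where Pemt turned to the other side under quantile normalization, and Cbs stands apart from Mat1a, Bhmt and Cth on the genotype axis.

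Comparing probe sets within an array removes any factor shared by a whole array. The size of such a difference depends on the probes and only its change between arrays can be read. Cth minus Cbs was 1.64 to 2.61 in the 6 POR-null arrays (median 2.41) and 1.14 to 1.58 in the 6 wild-type arrays (median 1.37). Bhmt minus Cbs was 4.07 to 4.62 in POR-null arrays (median 4.47) and 3.06 to 3.67 in wild-type arrays (median 3.61). The genotypes did not overlap in either, and POR-null control array 3 was the POR-null array nearest to wild type in both. For Bhmt minus Cbs this lack of overlap was fixed in advance, because each gene alone separated the genotypes, in opposite directions. Both pairs join genes called in opposite directions above. The within-array differences rest on the same values as the tests above and were not tested again.

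**Figure D4:**
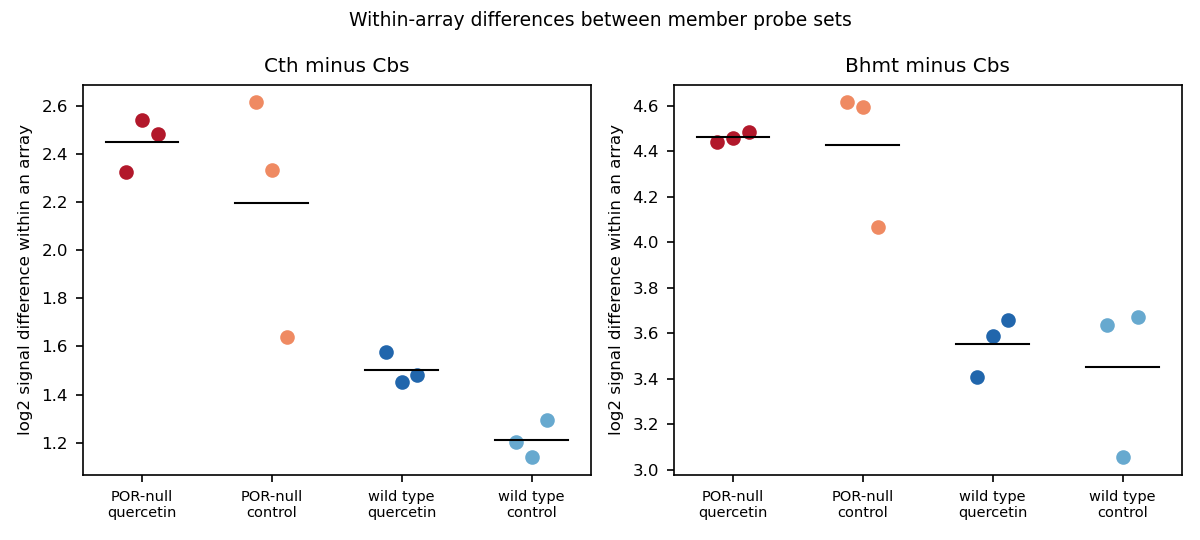
Within-array log2 difference of Cth minus Cbs and of Bhmt minus Cbs, with 3 points and a line at the mean for each genotype and diet group. All POR-null arrays lie above all wild-type arrays in both panels, which for Bhmt minus Cbs follows from the separation of each gene alone.

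The 12 arrays share the group differences, so correlations among members describe these arrays only. Over all of them Bhmt and Cth had r = 0.859, Mat1a and Cth 0.782 and Mat1a and Bhmt 0.773. After each group's mean was removed, these values were 0.46, -0.10 and -0.10. Cdo1 with Cth kept a similar value, 0.653 over all arrays and 0.721 within groups, as did Pemt with Cth, 0.625 and 0.686. Ahcy with the brighter Cbs probe set was 0.38 over all arrays and -0.846 within groups. With the other Cbs probe set the values were 0.509 and -0.358, so the size of the within-group value depended on the probe set.

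For each member the 2 most alike of 7386 other genes with means above the median were taken by Pearson's r over the 12 arrays. Picked as the highest of so many over so few arrays, such values are high in part by selection. They include the group differences, and values within groups were not computed for these genes. For Bhmt they were Abat (r = 0.978), which encodes the aminotransferase of the neurotransmitter GABA, and Mrps17 (0.965), which encodes a mitochondrial ribosomal protein. For Cth they were Degs1 (0.933), a ceramide desaturase gene, and Ethe1 (0.930), whose product oxidises persulfide formed from hydrogen sulfide in mitochondria. For Mat1a they were Stab1 (0.913), a scavenger receptor gene of endothelial cells and macrophages, and Etf1 (0.904), a translation termination factor gene. For Cbs they were Pecr (0.918) and Capn10 (0.896). For Ahcy they were Dtx1 (0.953) and Irf8 (0.859), for Gnmt Prmt7 (0.910) and Sphk2 (0.861), for Pemt Ppp2r1a (0.888) and Stbd1 (0.851), and for Cdo1 Aagab (0.905) and Vamp7 (0.905).

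Genes around the pathway were counted in 7 lists, each gene by its brightest probe set. For genotype averaged over diets, 4.88% of all probe sets were higher and 2.7% lower. Those shares are by probe set and not by gene. Among other methionine cycle genes, averaged over diets, 2 of 8 measured were higher in POR-null liver and 1 lower. Bhmt2, a close paralog of Bhmt whose enzyme takes S-methylmethionine as methyl donor, had signals of 9.63, 9.53 and 9.61 in POR-null quercetin pools, 9.53, 9.31 and 9.06 in POR-null control pools, 9.04, 8.98 and 9.15 in wild-type quercetin pools and 8.60, 8.23 and 8.53 in wild-type control pools. On each diet all POR-null pools lay above all wild-type pools, and across diets POR-null control array 3 was below wild-type quercetin array 3. Bhmt2 was higher averaged over diets by 0.69 (adjusted p = 0.000466), on the control diet by 0.84 (adjusted p = 0.00826) and on the quercetin diet by 0.53 (adjusted p = 0.033). The quercetin-diet call of Bhmt2 was lost on leaving out any 1 of that diet's 6 arrays, while the control-diet call held in all 6 such fits. Its probe set is of the type that can match related transcripts, and shared signal between Bhmt and Bhmt2 was not tested. Bhmt minus Bhmt2 within an array was 3.74 to 4.03 in POR-null arrays and 3.89 to 4.33 in wild-type arrays. Mmachc, which processes cobalamin, was higher by 0.47 (adjusted p = 0.00957), and Cd320, the receptor for cobalamin bound to transcobalamin, was lower (-0.25, adjusted p = 0.0422). Mmachc signal was low, with means of 6.13 in POR-null quercetin, 5.62 in POR-null control, 5.46 in wild-type quercetin and 5.36 in wild-type control pools. The median of all values was 5.96. Its genotype difference was 0.67 on the quercetin diet (adjusted p = 0.0195) and 0.26 on the control diet (adjusted p = 0.378).

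Of folate one-carbon genes 3 of 15 measured were higher and 1 lower in POR-null liver averaged over diets. The shares over all probe sets were 4.88% and 2.7%. Mthfd1, which interconverts forms of folate that carry the methyl precursor, was higher by 0.30 (adjusted p = 0.00995). Dld, the lipoamide dehydrogenase shared by the glycine cleavage system, was higher by 0.36 (adjusted p = 0.0239), and Fpgs, which adds the glutamate tail of folates, by 0.44 (adjusted p = 0.0353). Ftcd, which joins histidine breakdown to the folate pool, was lower (-0.33, adjusted p = 0.0328).

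Of choline and betaine genes 3 of 15 measured were higher and 1 lower, against 4.88% and 2.7% of all probe sets. Chka, choline kinase alpha, which takes choline into phosphatidylcholine synthesis, was lower (-0.70, adjusted p = 0.00772), with 5.78 to 6.30 in POR-null pools and 6.20 to 7.25 in wild-type pools. Pcyt1a, the rate-setting enzyme of the same route, was higher by 0.31 (adjusted p = 0.0239) and Chpt1, its last enzyme, by 0.31 (adjusted p = 0.0197). Aldh7a1, a betaine aldehyde dehydrogenase, was higher by 0.26 (adjusted p = 0.0257).

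Of S-adenosylmethionine-dependent methyltransferase genes other than the members, 3 of 22 measured were higher and 0 lower, against 4.88% and 2.7% of all probe sets. Gamt, which makes creatine by methylating guanidinoacetate, was higher by 0.81 (adjusted p = 0.0357), and wild-type quercetin array 1 was low for it at 6.89 against 7.87 to 8.37 in the other wild-type arrays. Coq5, a coenzyme Q methyltransferase, was higher by 0.40 (adjusted p = 0.0105) and As3mt, the arsenite methyltransferase, by 0.45 (adjusted p = 0.0475).

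Of genes for cysteine, taurine and sulfide metabolism 5 of 17 measured were higher and 0 lower, against 4.88% and 2.7% of all probe sets. Papss2, which activates sulfate for sulfation, had signals of 10.06, 10.20 and 10.11 in POR-null quercetin pools, 10.14, 9.65 and 9.41 in POR-null control pools, 8.87, 9.23 and 9.26 in wild-type quercetin pools and 8.96, 8.97 and 8.93 in wild-type control pools. Its POR-null pools all lay above its wild-type pools, and the difference averaged over diets was 0.89 (adjusted p = 0.000341). Got1, the cytosolic aspartate aminotransferase, which can also transaminate cysteine and cysteine sulfinate, was higher by 0.93 (adjusted p = 0.000737). Suox, sulfite oxidase, was higher by 0.49 (adjusted p = 0.00511) and Tst, thiosulfate sulfurtransferase, by 0.28 (adjusted p = 0.0233). The fifth gene, Csad, the decarboxylase that leads to hypotaurine, was higher by 0.56 (adjusted p = 0.046) and was named after its values were seen, to complete the count.

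In glutathione synthesis 0 of 10 measured genes were higher and 1 was lower, against 4.88% and 2.7% of all probe sets. That gene was Gclc, the catalytic subunit of the enzyme that joins cysteine to glutamate. Its signal was 8.87, 8.59 and 8.97 in POR-null quercetin pools, 8.83, 9.15 and 9.46 in POR-null control pools, 9.54, 9.75 and 9.82 in wild-type quercetin pools and 10.33, 10.10 and 9.63 in wild-type control pools. All POR-null pools were below all wild-type pools, and the difference averaged over diets was -0.88 (adjusted p = 0.00106). The Gclc probe set is also of the type that can match related transcripts. Of polyamine and methionine salvage genes 0 of 12 measured passed in any comparison, with Adi1, a methionine salvage enzyme, at the lowest p (-1.06 on the control diet, adjusted p = 0.108).

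Medians of the lists averaged over diets ran from -0.07 for glutathione synthesis to 0.11 for cysteine, taurine and sulfide genes, against -0.02 over all probe sets. For quercetin and for the interaction 0 genes of these lists passed. Averaged over diets, calls that were lost on leaving out a single array concerned Cd320, As3mt, Fpgs, Ftcd, Dld, Gamt, Aldh7a1, Tst, Chpt1 and Pcyt1a. Of these, Cd320 held in 2 of 12 such fits and Pcyt1a in 9. The calls averaged over diets of Bhmt2, Mmachc, Mthfd1, Chka, Coq5, Papss2, Got1, Suox and Gclc held in all 12. The call of Csad, close to the threshold, was not followed in these fits.

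**Figure D5:**
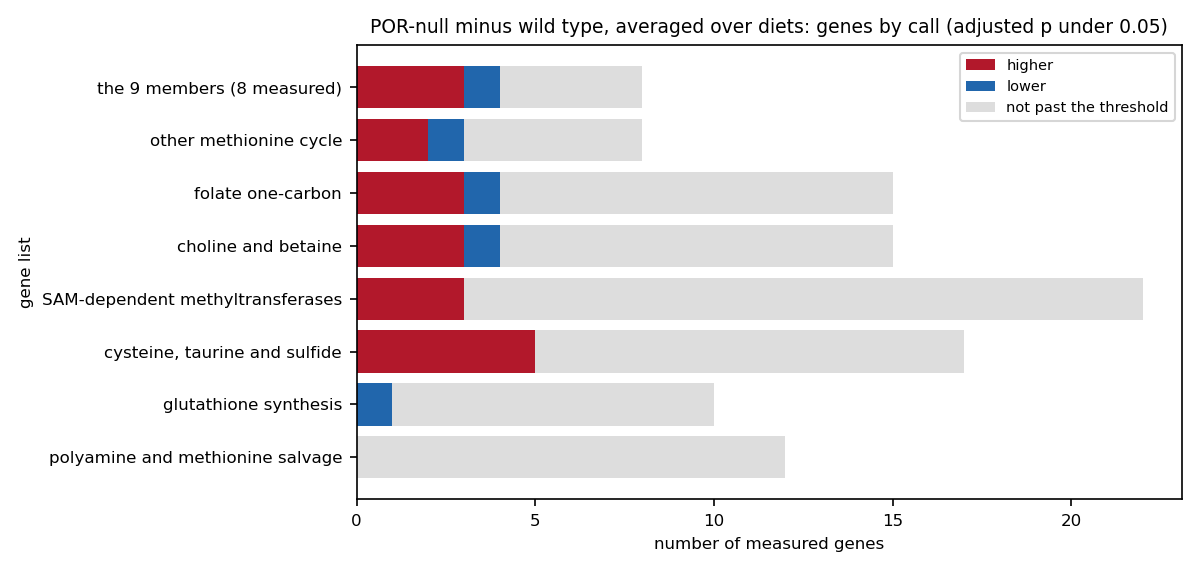
Number of measured genes of the members and of the 7 related lists that were higher, lower or not past the threshold in POR-null against wild-type liver averaged over diets, as stacked bars. Glutathione synthesis has no bar part for higher genes, and the cysteine, taurine and sulfide list has none for lower genes.

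Some markers of other cells and of liver zones also differed between the groups. Kupffer cell and macrophage markers, relative to their mean over all arrays, were at 0.12 to 0.35 in POR-null quercetin, -0.02 to 0.34 in POR-null control, -0.28 to 0.46 in wild-type quercetin and -0.48 to -0.03 in wild-type control pools. By genotype averaged over diets, 3 of 11 measured were higher, against 4.88% of all probe sets. Markers of hepatocytes near the central vein were at 0.09 to 0.22, -0.01 to 0.22, -0.25 to 0.00 and -0.15 to -0.10 in POR-null quercetin, POR-null control, wild-type quercetin and wild-type control pools. Of these 10, 2 passed as higher in POR-null liver and 5 had means above 0 for genotype averaged over diets, while the other 5 were at or below 0. Markers of hepatocytes near the portal vein, 6 of 10 measured, were at -0.02 to 0.06, -0.07 to -0.04, 0.09 to 0.27 and -0.19 to -0.05 in the same groups, with 1 higher and 1 lower. The genes past the threshold for genotype averaged over diets, named after their values were seen, were Mpeg1, Cd5l and C1qa among macrophage markers, Oat (0.68) and Rhbg (1.09) near the central vein, and near the portal vein Aldh1b1, which was higher, and Pck1, which was lower. In the other lists the stellate cell marker Sparc was higher (0.39, adjusted p = 0.0139), and the hepatocyte marker F2 (-0.24, adjusted p = 0.0387) and the lymphocyte marker Nkg7 (-0.36, adjusted p = 0.0122) were lower. Of all 12 hepatocyte markers 2 had means above 0 for genotype, with a median of -0.09. The part of these shifts in the members' differences was not tested.

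Exocrine pancreas markers, of which 11 of 14 were measured, differed between pools of every group. They were at -0.61 to 2.25 in POR-null quercetin, -0.92 to 0.80 in POR-null control, -1.23 to 0.68 in wild-type quercetin and -0.81 to 1.08 in wild-type control pools, and 0 passed for genotype although 11 of 11 were above 0 averaged over diets. With the array highest in them left out of each group, the genotype difference averaged over diets was 0.35 for Mat1a, no longer past the threshold (adjusted p = 0.0669). It was 0.42 for Bhmt (adjusted p = 0.0171), 0.54 for Cth (adjusted p = 0.047), -0.54 for the brighter Cbs probe set (adjusted p = 0.0104) and -0.48 for the other (adjusted p = 0.0179). That fit had 8 arrays in place of 12 and was chosen after the data were seen.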

How the data were processed

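The 12 liver RNA pools were hybridised to Affymetrix 430A arrays. The deposited table holds log2 values, judged from their range of 2.57 to 14.17, with array medians of 5.93 to 5.99. MAS5 and RMA are named in the submitters' processing notes with no version or role, so which the authors used for these log2 values is not given in the sources used here. No further normalization and no pseudocount was applied. Of 22690 probe sets, 64 array controls were left out and 22626 were tested. The platform annotation gave 1 symbol to 20380 probe sets, several to 691 and none to 1555; symbols were checked by gene identifier for 20351 against RefSeq GRCm38.p6, with 0 changed. Where a gene had several probe sets, the one with the highest mean stood for it.

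Groups were taken from the sample titles. Limma 3.58.1 in R 4.3.3 fitted 1 mean per group over all 12 arrays, with an intensity trend in the variance prior, for 7 contrasts: quercetin in each genotype and averaged, their difference, and genotype on each diet and averaged. Tests were two-sided, with Benjamini-Hochberg adjustment over all 22626 probe sets and a threshold of 0.05. A difference has a median 95% confidence half-width of 0.24 between a pair of groups, 0.17 for an average and 0.34 for the interaction, and the number of arrays limits this. The procedure was run on simulated data with independent noise, where mean estimates came close to the planted differences. That check does not cover structure shared across a whole array.

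All members are accounted for. From each of the 7 related lists, up to 4 genes per contrast with the lowest p among those past the threshold were named, or else the gene with the lowest p, and for each member the 2 most correlated genes. The members and lists were chosen with earlier results of these data known. Alternatives were a filter on the lowest 40% of means, quantile normalization, a robust prior, a prior with no trend, array weights, pool number as a block, only the groups compared, gene means, and each array left out in turn. A fit without the array highest in pancreas markers in each group was added after seeing the data. Promoter windows came from RefSeq, where 6 of the 9 members had one, and were searched with Python 3.11.15; figures used matplotlib 3.10.9.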

Additional observations from a re-analysis of the deposited data

How the results depend on the processing

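The 63 member results gave 1080 values under the alternatives, of which 1002 kept direction and side of the threshold, 10 lost a call, 21 gained one and 47 turned sign, 0 of them past the threshold. For the list genes named by the rule, which leaves out Csad, the 565 values held 433 unchanged calls, 127 lost calls, 5 gained calls and 0 turned signs. The 5 member calls for genotype averaged over diets held in every alternative run except that Mat1a was lost without the arrays highest in pancreas markers, which left 4. The causes of changes were not tested.

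Member calls on the control diet (0) became 2 with the low-value filter, 1 with quantile normalization, 1 with a robust prior, 3 with array weights and 0 to 3 with an array left out. On the quercetin diet (1) they became 2 with the filter, 2 with quantile normalization, 2 with a robust prior, 3 with array weights, 4 with only the groups compared, 0 without trend, 0 with the replicate block, 0 without the arrays highest in pancreas markers and 0 with any array left out.

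Over all probe sets, calls for quercetin in wild type (0) became 1 with the filter, 1 without trend, 2 with the replicate block and 0 to 151 with an array left out. In POR-null liver (0) they were 1 without the pancreas-high arrays and 0 to 4 with an array left out, for the diet average 0 to 24, with 24 without wild-type control array 1, and for the interaction 0 to 1. Genotype calls on the control diet (262) became 30 with only the groups compared and 138 without the pancreas-high arrays. They spanned 35 to 756 with an array left out, and gene means gave 110 of 12393 genes. On the quercetin diet (527) they became 1052 with array weights, 950 with only the groups compared, 279 without the pancreas-high arrays and 127 to 389 with an array left out. Averaged over diets (1714) they became 1127 without the pancreas-high arrays and 991 to 2128 with an array left out, and gene means gave 1061 of 12393 genes. Counts with gene means are of genes and cannot be set directly against counts of the 22626 probe sets.

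Signs turned for differences that did not pass. Quantile normalization gave -0.017 for Gnmt under quercetin in wild type, -0.01 for Pemt in POR-null and -0.034 averaged over genotypes, -0.043 and -0.035 for the Cbs interactions, -0.012 for the genotype difference of Gnmt on the control diet, and for Pemt -0.071 on the control diet, -0.024 on the quercetin diet and -0.047 averaged. Array weights gave -0.001 for Cdo1 under quercetin in POR-null. Without the pancreas-high arrays quercetin gave -0.056 for Gnmt and 0.032 for Pemt in wild type and -0.028 for Ahcy and -0.1 for Cdo1 in POR-null, the Bhmt interaction was 0.089 and the control-diet genotype difference of Ahcy 0.006. With an array left out, quercetin in wild type spanned -0.043 to 0.114 for Gnmt and -0.062 to 0.041 for Pemt, quercetin in POR-null -0.032 to 0.123 for Ahcy and -0.088 to 0.136 for Cdo1, and the diet average of Pemt -0.005 to 0.047. The interaction spanned -0.145 to 0.105 for Bhmt, -0.136 to 0.145 and -0.052 to 0.132 for the Cbs probe sets and -0.172 to 0.182 for Cth. Genotype on the control diet spanned -0.151 to 0.004 for Ahcy, -0.043 to 0.114 for Gnmt and -0.017 to 0.091 for Pemt, and averaged over diets -0.008 to 0.105 for Cdo1.

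Pools share a number across groups, and deviations of same-numbered pools from their group means correlated at -0.184 to 0.235 over 18 pairs. Pools with other numbers gave -0.219 to 0.223. The overlap of these ranges cannot decide whether the numbers pair the samples, and the main tests used no pairing. With the number as a replicate block, genotype calls over all probe sets were 1647 averaged over diets.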
